A study of Mus musculus with 6 samples.

Results

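The genes described here encode the epidermal growth factor (EGF) receptor family and its ligands: the receptors Egfr, Erbb2 and Erbb3, the ligands Areg, Ereg, Hbegf, Tgfa, Btc and Nrg1, and the receptor inhibitor Errfi1. They were chosen by gene symbol, and all 10 were found among the 14526 genes of the deposited table. RNA was sequenced from NMuMG, an epithelial cell line from normal mouse mammary gland that undergoes epithelial to mesenchymal transition (EMT) under TGF-beta. In 3 libraries (siNTC) the cells received TGF-beta and a non-targeting small interfering RNA (siRNA). In the other 3 (siMnt) they received TGF-beta and siRNA against Mnt, a repressor of transcription that acts as a dimer with Max at E-boxes, the sites of Myc. Per the labels' protocols, both agents were added together 16 hours after plating and given again on day 2, and RNA came from day 4. All 6 libraries thus carry TGF-beta, and cells without it were not analysed here. Each library is RNA of a whole culture, and the labels do not say whether replicates were separate cultures, and a p-value here weighs a difference only against the spread of these libraries, whose source may be technical.

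Ligands of the EGF family are made as membrane-bound precursors, released by proteases of the ADAM family, and bind receptors of the ErbB family, which pair and phosphorylate each other. Egfr binds Areg, Ereg, Hbegf, Tgfa and Btc, Erbb3 binds the neuregulin Nrg1, and Erbb2, which has no known soluble ligand, serves as a partner. Signals pass through adaptors to the Ras-ERK and PI3K-Akt pathways, and ERK activity in turn induces ligands and inhibitors of the same family. In the mammary gland amphiregulin, the product of Areg, is known as the Egfr ligand needed for growth of the ducts.

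No member passed the test across all genes, and the lowest adjusted p was that of Areg. Areg stood at 2199 ± 1664 normalised read counts in siNTC and 548 ± 91.6 in siMnt (mean ± SD, n = 3 libraries per group). With the replicate number of the titles as a block, Areg and its genomic neighbour Ereg fell. The 3 receptors, 4 other ligands and Errfi1 passed neither fit. Normalised read counts are reads per gene divided by 1 size factor per library. A gene passed at an adjusted p under 0.05 by limma on log2(value + 1), with Benjamini-Hochberg adjustment over the 12568 genes that had a mean of at least 10. By that rule 0 of the 10 members were called, against 3.93% of all tested genes. Without adjustment 2 members, Areg and Btc, had a p under 0.05, against 23.4% of all tested genes. On recovered whole reads edgeR called 0 members (3.54% of all genes) and DESeq2 called 1, Areg (11.6%). With the block 2 members were called, both lower in siMnt. That is 20% of the members, against 15.9% of all genes called and 6.56% called lower. The block is given beside these results because same-numbered libraries deviated together from their group means.

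The libraries held 22323050 to 42193291 reads. Mnt itself stood at 1316, 896 and 1596 in siNTC replicates 1, 2 and 3 and at 613, 557 and 749 in siMnt replicates 1, 2 and 3. That left 50.4% of the control mean (log2 fold change -0.96 ± 0.22 SE, adjusted p = 0.0546 by limma and 0.00442 with the block). On the first principal component siNTC replicate 3 lay at -0.81, between siNTC replicates 1 and 2 (-43.0 and -52.3) and the siMnt libraries (29.4 to 35.5). Without siNTC replicate 3 limma called 2024 genes in place of 494, and it called 0 when replicate 1 of siNTC, replicate 1 of siMnt or replicate 2 of siMnt was left out, with 2200, 1807 and 1911 genes at an unadjusted p under 0.05. The epithelial label was checked on 8 markers. The 6 in the table, led by Krt18 and Krt8, summed to between 118641 and 146748 in siNTC and between 129367 and 140851 in siMnt, most of it from the keratins Krt8, Krt18 and Krt19. By limma 0 of 6 passed, and with the block 1 did, Cdh1 (E-cadherin), which was higher in siMnt (adjusted p = 0.179 without and 0.0474 with the block). Of 6 mesenchymal markers Vim, Cdh2 and Zeb2 fell, with the block also Fn1 and Zeb1 (adjusted p = 0.0208 and 0.012). Acta2 passed neither fit (adjusted p = 0.56 by limma, 0.276 with the block), and its groups overlapped. The list summed to between 185738 and 322080 in siNTC and between 83943 and 128845 in siMnt. Most of that sum was Fn1, with means of 194144 in siNTC and 89027 in siMnt (adjusted p = 0.0734, limma). Of the leukocyte and endothelial markers, Ptprc did not exceed 6.65 and Pecam1 did not exceed 9.55 in any library. Cdh5, an endothelial cadherin, was at 96.1, 80.9 and 63.3 in siNTC and 41.1, 32.2 and 47.8 in siMnt, with no overlap (adjusted p = 0.0836 by limma, 0.0435 with the block). Itgam, an integrin of myeloid cells, rose from a low level and lay between 4.43 and 8.40 in siNTC and between 17.9 and 28.1 in siMnt. The part of these markers in the results below was not tested.

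**Figure D1:**
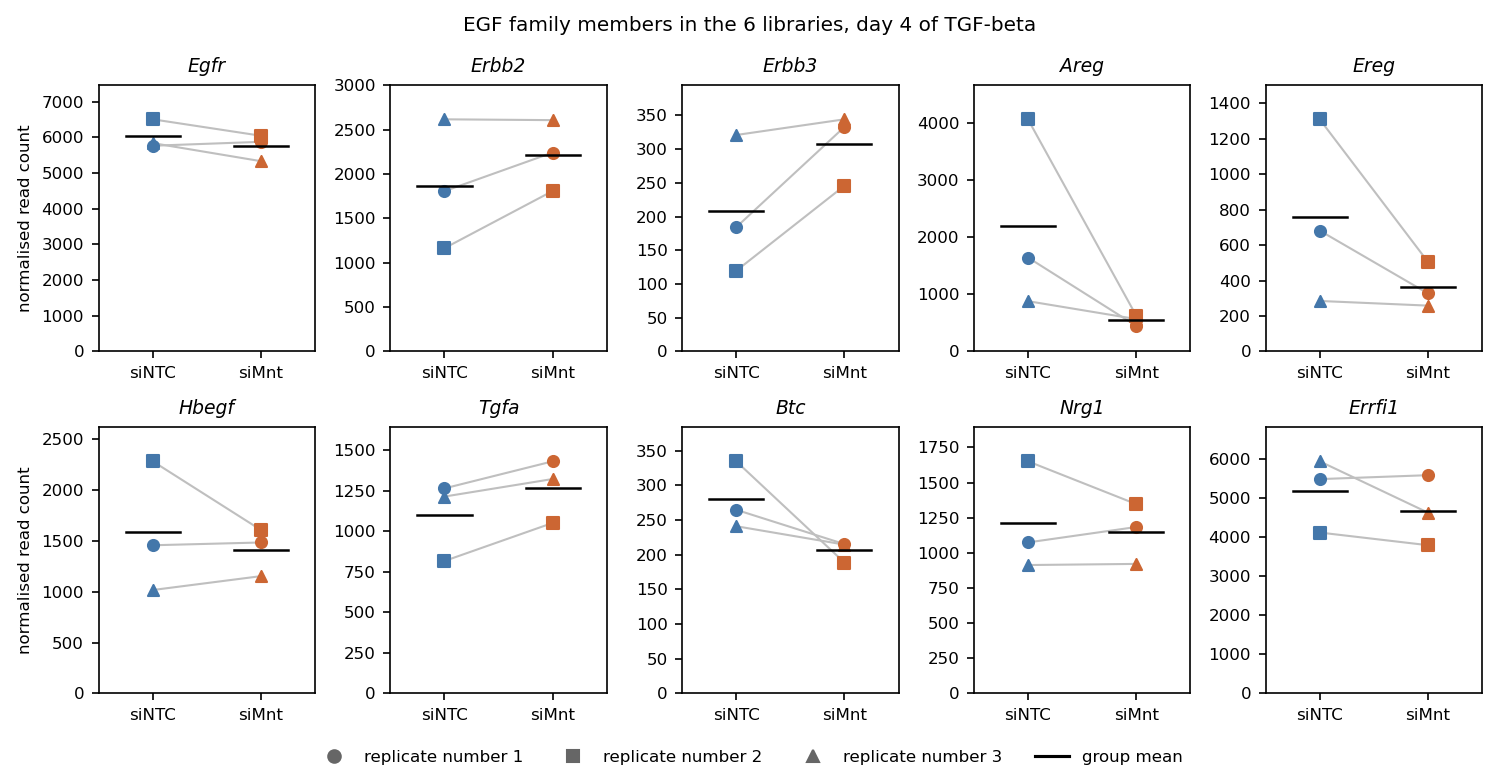
Normalised read counts (vertical axes, each from 0) of the 10 members in the 3 siNTC and 3 siMnt libraries; marker shapes give the replicate number, grey lines join libraries with the same number and black bars are group means. Areg is below its control partner in all 3 numbers, and the siNTC point of number 2 is the highest for Egfr, Areg, Ereg, Hbegf, Btc and Nrg1.

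Egfr, the receptor of most of these ligands, was the steadiest member. It stood at 5762, 6502 and 5835 in siNTC replicates 1, 2 and 3 and at 5871, 6041 and 5329 in siMnt replicates 1, 2 and 3. The groups overlapped throughout, and the difference was small beside its error (log2 fold change -0.07 ± 0.11 SE, 95% interval -0.33 to 0.19, adjusted p = 0.757, limma). In siNTC the SD of its log2 values was at the 10.6th percentile of all tested genes.

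Erbb2, the partner receptor, was at 1807, 1164 and 2617 in the siNTC libraries and 2243, 1809 and 2608 in the siMnt libraries. In both groups replicate number 2 was lowest and number 3 highest. The siMnt library held 124% and 155% of its control partner in numbers 1 and 2 but 99.6% in number 3, so the direction was not shared by all pairs. Neither fit called it (log2 fold change 0.31 ± 0.28 SE, 95% interval -0.33 to 0.96; adjusted p = 0.535 by limma, 0.143 with the block). The log2 fold change shrank to 0.01 once siNTC replicate 2 was left out.

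Erbb3, the neuregulin receptor, whose own kinase is weak, was the lowest receptor per length. Its siNTC libraries held 184, 119.6 and 321 and its siMnt libraries 333, 246 and 344 normalised read counts. Every siMnt library exceeded its control partner, holding 181%, 205% and 107% of it in numbers 1, 2 and 3, but siNTC replicate 3 exceeded siMnt replicate 2, so the groups overlapped. The log2 fold change of 0.66 ± 0.34 SE (95% interval -0.12 to 1.44) did not pass (adjusted p = 0.283 by limma, 0.057 with the block). It was 1.03 with adjusted p = 0.0294 (limma) without siNTC replicate 3. In that fit 3 members passed, Erbb3 higher and Areg and Ereg lower, against 16.1% of all tested genes.

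Areg was the member with the largest difference. Its siNTC libraries held 1646, 4069.5 and 881 and its siMnt libraries 449, 629 and 567 normalised read counts. Every siMnt value was below every siNTC value. Such separation of the groups was seen in 2 of the 10 members, Areg and Btc, and in 31.5% of all tested genes. The siNTC libraries spread over a 4.62-fold range, whereas the siMnt libraries spread over a 1.40-fold range. Within replicate numbers 1, 2 and 3 the siMnt library held 27.3%, 15.5% and 64.4% of its control partner. On the log2(value + 1) scale the difference was -1.73 ± 0.47 SE (95% interval -2.82 to -0.64), with adjusted p = 0.0798 by limma. Areg passed with the block (adjusted p = 0.0105), by DESeq2 (0.0232) and after correction for GC content and transcript length (0.0477, limma, a fit that called 8.61% of all genes and 1 member), and did not pass by edgeR (0.0682). Leaving out 1 library at a time gave adjusted p between 0.00496, without siNTC replicate 3, and 0.274, without siMnt replicate 1, and log2 fold changes between -2.25 and -1.15, the smallest without siNTC replicate 2. In a whole culture, fewer cells that express Areg and less Areg RNA per cell cannot be told apart.

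The genes whose pattern over the 6 libraries was most like that of Areg, by Pearson correlation of log2 values, were Lyrm9 (r = 0.999), Ppid (0.998) and Mrps27 (0.998). These values describe 6 libraries that share the siRNA groups and replicate numbers, and 1188 of the 11210 genes compared had r over 0.9. Among the members Btc (0.935) and Ereg (0.889) were closest to Areg and Erbb3 (-0.938) was farthest. Lyrm9, Ppid and Mrps27 had log2 fold changes of -0.34, -0.61 and -0.53, against -1.73 for Areg.

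Promoter sequence was looked up because the knocked-down factor binds E-boxes and because Areg, the member with the largest difference, responds in other settings to factors that bind the cyclic AMP response element. RefSeq promoters (build GRCm38.p6) were found for 6 of the 10 members, with 7 start sites. Erbb3, Ereg, Hbegf and Nrg1 had no entry. The 250 bases before each start were searched on both strands for CACGTG, the E-box of Myc and Mnt with Max; CACCTG, the E-box of Zeb and Snail factors; TGANTCA, the AP-1 site; and TGACGTCA, the cyclic AMP response element. None of these motifs contains another. CACGTG was found at 0 of the 7 starts and at 6.02% of 32851 promoters of the same length. TGACGTCA was found for Areg and for the second start of Errfi1, and at 1.55% of all promoters. This motif was chosen with Areg in mind, so its match there is no test against that share. CACCTG was found for Areg, Tgfa and Btc, and at 17.2% of all promoters, and TGANTCA for 0 members and at 6.75% of all promoters. Both promoters with TGACGTCA are shown, with matches in capitals; in Areg the first base of TGACGTCA is at -61 and that of CAGGTG, the other strand of CACCTG, at -20 from the start, and in Errfi1 TGACGTCA begins at -51. A match describes letters in this window and is not a measured binding site.
Areg, chr5:91139349-91139598, plus strand: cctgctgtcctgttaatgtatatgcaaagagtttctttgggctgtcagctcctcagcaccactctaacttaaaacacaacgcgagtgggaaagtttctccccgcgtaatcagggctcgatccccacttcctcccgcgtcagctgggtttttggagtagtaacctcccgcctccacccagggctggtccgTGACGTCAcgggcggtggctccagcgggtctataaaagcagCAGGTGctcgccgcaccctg
Errfi1, second start, chr4:150854820-150855069, plus strand: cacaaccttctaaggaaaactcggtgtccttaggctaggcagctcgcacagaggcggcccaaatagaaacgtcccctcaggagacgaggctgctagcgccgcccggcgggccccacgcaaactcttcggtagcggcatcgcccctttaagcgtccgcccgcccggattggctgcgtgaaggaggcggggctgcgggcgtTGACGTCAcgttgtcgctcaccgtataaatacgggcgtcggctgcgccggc

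Ereg, which encodes epiregulin and lies next to Areg on the chromosome, was at 682, 1310.4 and 285 in siNTC and 328, 506 and 259 in siMnt. The groups overlapped, because siNTC replicate 3 was below siMnt replicates 1 and 2. Within numbers 1, 2 and 3 the siMnt library held 48.0%, 38.6% and 90.8% of its control partner. Ereg did not pass by limma (log2 fold change -0.86 ± 0.50 SE, 95% interval -2.02 to 0.31, adjusted p = 0.346) but fell with the block (95% interval -1.35 to -0.36, adjusted p = 0.0321). With the block and the GC and length correction together, a fit that called 19.2% of all genes, the adjusted p was 0.0501 and Areg alone of the members passed. Its log2 fold change was -0.33 without siNTC replicate 2 and -1.43 without siNTC replicate 3. Both Areg and Ereg were among the most variable genes of the control: the SDs of their siNTC log2 values, 1.11 and 1.10, lay at the 98.0th and 97.9th percentiles.

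Btc, betacellulin, is the next protein-coding gene on the other side of Areg in the RefSeq gene order. It was at 265, 335 and 241 in siNTC and 215, 189 and 214 in siMnt, so every siMnt library lay below every control. The difference was modest and did not pass (log2 fold change -0.43 ± 0.18 SE, 95% interval -0.84 to -0.02; adjusted p = 0.2 by limma, 0.128 with the block). Epgn, epigen, beyond Ereg in the same cluster, had at most 4.52 normalised read counts in any library and was not tested. Mthfd2l and Parm1, the protein-coding genes that flank the 4 ligand genes, differed by -0.22 and 0.24 on the log2 scale (limma adjusted p = 0.516 and 0.251).

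Hbegf, Tgfa and Nrg1, the ligands encoded elsewhere, did not pass in either fit. Hbegf, heparin-binding EGF, was at 1455, 2279.6 and 1016 in siNTC and 1482, 1605 and 1152 in siMnt. Only number 2 had a lower siMnt value, at 70.4% of its partner, against 102% and 113% in numbers 1 and 3. The log2 fold change was -0.10 ± 0.28 SE (95% interval -0.74 to 0.54, adjusted p = 0.873, limma), and it turned positive without siNTC replicate 2 (0.20) or siMnt replicate 3 (0.04).

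Tgfa, transforming growth factor alpha, was at 1266, 817 and 1215 in siNTC and 1433, 1052 and 1323 in siMnt. Each siMnt library exceeded its partner, holding 113%, 129% and 109% of it in numbers 1, 2 and 3, and the groups overlapped (log2 fold change 0.22 ± 0.20 SE, 95% interval -0.24 to 0.68; adjusted p = 0.541 by limma, 0.203 with the block). Nrg1, neuregulin 1, was at 1074, 1652 and 913 in siNTC and 1184, 1347 and 921 in siMnt. Its log2 fold change of -0.05 ± 0.24 SE (95% interval -0.59 to 0.50, adjusted p = 0.933, limma) turned positive without siNTC replicate 2 (0.20) or siMnt replicate 3 (0.10).

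Errfi1, also called Mig6, encodes a protein that binds the kinase domain of Egfr and blocks it, and is itself induced by Egfr signalling. It was at 5495, 4125 and 5951 in siNTC and 5595, 3800.5 and 4636 in siMnt. Number 2 was lowest in both groups, and the siMnt library held 102%, 92.1% and 77.9% of its partner in numbers 1, 2 and 3. The log2 fold change was -0.15 ± 0.19 SE (95% interval -0.58 to 0.28; adjusted p = 0.674 by limma, 0.392 with the block).

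**Figure D2:**
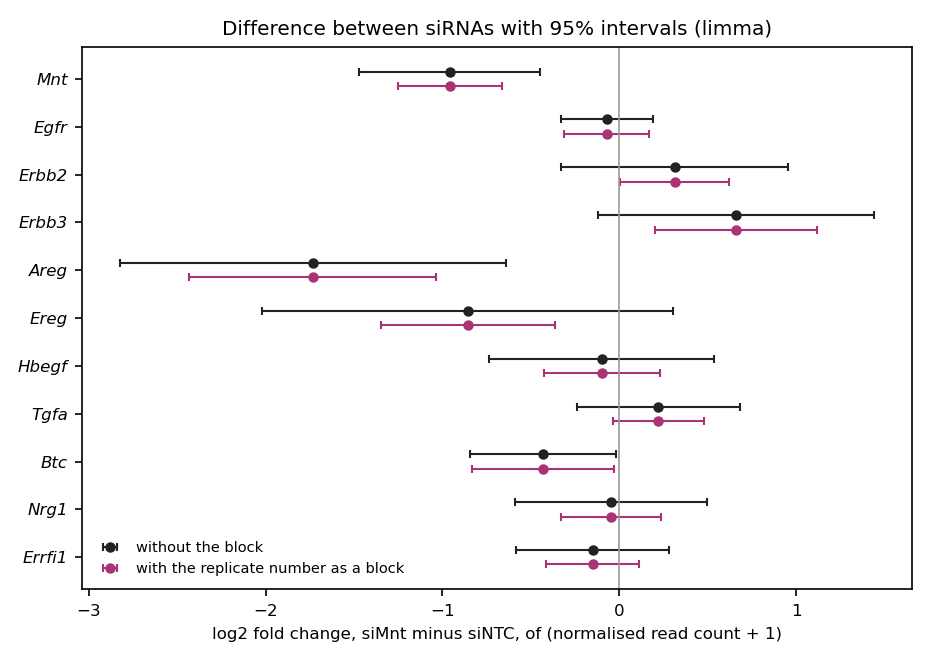
Log2 fold change of siMnt over siNTC for value + 1 (horizontal axis) for Mnt and the 10 members, with 95% intervals from limma without the block (black) and, in purple, with replicate numbers blocked. The interval of Ereg covers 0 without the block (-2.02 to 0.31) and lies below 0 with it (-1.35 to -0.36).

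Over the 10 members the median log2 fold change was -0.08, against -0.01 over all tested genes, with 3 members above 0 and 7 below. The members varied more within a group than the typical gene: the median SD of log2 values was 0.51 in siNTC and 0.26 in siMnt, against 0.26 and 0.13 over all tested genes. Areg and Ereg had the widest siNTC range, and Egfr the narrowest.

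Levels can be compared between members only per length, for which each normalised read count was divided by the length of the gene's longest protein-coding transcript. On this scale of normalised read counts per kb, Areg (mean 1809.9, range 725 to 3349) and Errfi1 (1706, 1356 to 1956) led in siNTC, and their ranges overlapped. Hbegf (667), Egfr (591), Erbb2 (372), Tgfa (243), Nrg1 (224), Ereg (184), Btc (97.4) and Erbb3 (34.6) followed. In siMnt Errfi1 was first (1537, range 1249 to 1839) and stood apart from Hbegf (595, 485 to 676). Egfr came next (563, 522 to 592), then Areg (451, 369 to 518), whose highest value was only just below the lowest of Egfr. Areg overlapped Erbb2 (443, 361 to 520). The order of members depends on the transcript lengths used. Tgfa (280) and Nrg1 (213) overlapped each other, as did Ereg (88.2) and Btc (71.6), and Erbb3 (51.2) was last in both groups.

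Areg thus made up most of the difference in the summed ligand transcripts. The 6 ligands together held 2703, 5229 and 1743 normalised read counts per kb in siNTC and 1683, 1863 and 1552 in siMnt, with overlap between siNTC replicate 3 and siMnt replicate 2. Areg was 50.1%, 64.1% and 41.6% of that sum in siNTC and 21.9%, 27.8% and 30.1% in siMnt. Hbegf, whose own level did not pass the test, was between 18.4% and 24.5% of the sum in siNTC and between 31.3% and 37.1% in siMnt. These shares sum to the whole, so a smaller share of Areg raises the others. They are a description, and depend on the transcript lengths used.

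**Figure D3:**
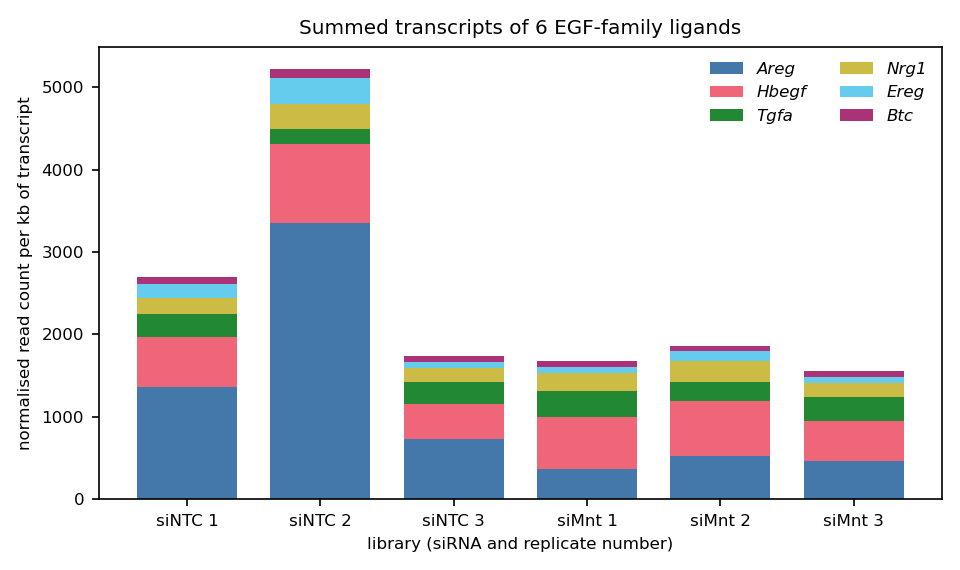
Stacked normalised read counts per kb of transcript (vertical axis, from 0) of the 6 ligand genes in each library (horizontal axis). The Areg segment is 41.6% to 64.1% of the bar in siNTC and 21.9% to 30.1% in siMnt, and siNTC replicate 2 has the tallest bar (5229).

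Most members had replicate number 2 at the same extreme in both groups. For Egfr, Areg, Ereg, Hbegf and Nrg1 number 2 was the highest library of both groups, and for Erbb2, Erbb3, Tgfa and Errfi1 it was the lowest of both. Number 2 was thus at the same extreme in both groups in 9 of 10 members, against 46.4% of all tested genes. ERK induces some genes early after stimulation. Number 2 was at the same extreme in both groups in 13 of 18 tested ERK-responsive genes and 8 of 13 ERK feedback genes. A narrower pattern, number 2 highest and number 3 lowest in both groups, was seen in 8 of the 18 and 3 of the 13. It was also seen in 3 of 10 members (Ereg, Hbegf and Nrg1, but not Areg) and in 9.12% of all tested genes. Egr1, an early growth response factor, was at 334, 2070.2 and 153 in siNTC and 1157, 2571 and 234 in siMnt. Fos was at 189, 975 and 60.1 in siNTC and 356, 825 and 89.5 in siMnt. Dusp1, a phosphatase of MAP kinases from the feedback list, was at 3136, 5926 and 1213 in siNTC and 2095, 3922 and 803 in siMnt. These genes were picked after their values were seen, and the labels do not say what libraries of one number share.

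**Figure D4:**
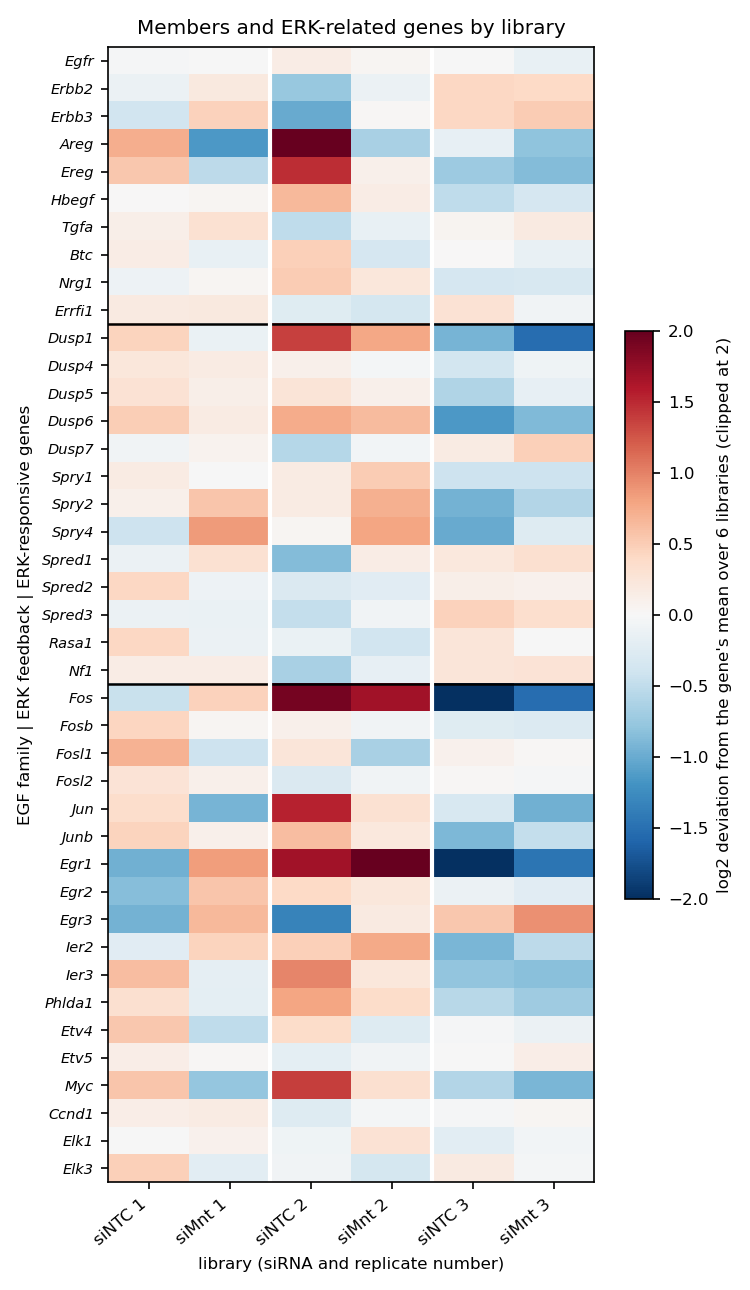
Log2 deviation of each library from the gene's mean over 6 libraries (colour, clipped at 2) for the 10 members, 13 ERK feedback genes and 18 ERK-responsive genes (rows), with same-numbered libraries side by side (columns). Fos, Egr1 and Dusp1 are above their mean in both libraries of number 2 and below it in both of number 3, whereas Areg is above its mean in siNTC replicates 1 and 2.

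Of 93 other genes of the pathway listed, 89 were in the table and 85 were tested. By limma 0 of 85 passed, against 3.93% of all tested genes. At an unadjusted p under 0.05 there were 18 of the 85, against 23.4% of all tested genes. On whole reads 0 passed by edgeR, against 3.54%, and by DESeq2 5 were higher and 2 lower, 7 in all, against 11.6%. With the block 9 were higher and 8 lower, which is 20% of the list against 15.9% of all genes. The median log2 fold change was 0.03, against -0.01 over all tested genes. Among the remaining receptors and ligands only Egf was tested, at 67.4 ± 23.4 in siNTC and 61.5 ± 6.14 in siMnt (adjusted p = 0.897, limma). Nrg2 was too low to test, and Erbb4, Nrg3 and Nrg4 were absent from the deposited table.

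Of 7 tested genes for shedding and trafficking of the ligands 0 passed with or without the block, against 15.9% and 3.93% of all tested genes. Adam10, a sheddase of Egf and Btc, was at 7366 ± 1397 and 8480.4 ± 924 (log2 fold change 0.22 ± 0.17 SE, adjusted p = 0.478, limma). Adam17, the main sheddase of Areg, Hbegf and Tgfa and named outside the rule, had a log2 fold change of -0.13 ± 0.12 SE (adjusted p = 0.563, limma).

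Among 13 adaptors and proximal signalling genes 0 passed by limma, and 3 were higher and 2 lower with the block. That is 38.5% of the list, against 15.9% of all tested genes. Whether this or any other list differed from all genes was not tested. Shc1, with the highest mean normalised read count of the list, was at 8677 ± 1782 and 8581 ± 653 (adjusted p = 0.997, limma). Those called with the block, named after their values were seen, were Grb7 (log2 fold change 0.73), Stat3 (0.68) and Gab1 (0.54), which were higher, and Ptpn11 (-0.59) and Gab2 (-0.55), which were lower. Ptpn11 encodes the phosphatase Shp2, which carries receptor signals to Ras, and Gab2 an adaptor that binds it. Ptpn11 stood at 9001, 7306 and 7622 in siNTC and 5217, 4777 and 5839 in siMnt without overlap, and lay just outside the threshold by limma (adjusted p = 0.0502; 0.0142 with the block).

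In the Ras, Raf, MEK and ERK list 0 of 11 passed by limma, and with the block 1, the scaffold Ksr1, was higher (log2 fold change 0.75, adjusted p = 0.0391). That is 9.09% of the list, against 15.9% of all tested genes. Of 10 PI3K and Akt genes 0 passed by limma, and with the block 2 were higher and 1 lower, 30% against 15.9% of all tested genes. The lower one, named after its values were seen, was Pik3r3, a regulatory subunit of PI3K (log2 fold change -0.53, adjusted p = 0.0269).

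Of 12 tested genes for inhibition and degradation of receptors 0 passed with or without the block, against 15.9% and 3.93% of all tested genes. Rnf128, a ubiquitin ligase, was at 7293 ± 840.0 and 8589 ± 689 (adjusted p = 0.31, limma), and the transmembrane Egfr inhibitor Lrig1, named outside the rule, had a log2 fold change of 0.24 ± 0.19 SE (adjusted p = 0.467). Of 13 ERK feedback genes 0 passed by limma, and with the block Spry4 was higher and Dusp1 lower (log2 fold changes 0.92 and -0.59). These are 15.4% of the list, against 15.9% of all tested genes. Spred1, with the highest mean normalised read count of the feedback list, not divided by length, was at 3926 ± 1366 and 5366 ± 348 (adjusted p = 0.255 by limma, 0.0615 with the block). Of 18 ERK-responsive genes 0 passed by limma, and with the block Egr1 and Ier2 were higher and Jun, Myc, Fosl1 and Ier3 lower. These are 33.3% of the list, against 15.9% of all tested genes. Ccnd1, cyclin D1, had the highest mean normalised read count of this list, not divided by length, at 19169 ± 2645 and 20478 ± 1426 (adjusted p = 0.721, limma). Without siNTC replicate 3, 7 of the 85 were higher and 6 lower by limma, against 16.1% of all tested genes called.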

How the data were processed

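RNA sequencing of 3 siNTC and 3 siMnt libraries was analysed, grouped by their titles. The authors deposited 1 table of normalised values, a signal that is never negative. TopHat2 2.1.0, DESeq2 and build mm9 appear in the submitters' processing notes; the counting tool, annotation and filters were not given in the sources used here. The deposited values step by 1 constant in each library, as counts scaled by a size factor do: dividing by the value of 1 read gave whole reads within 0.05 for 99.7% of values above 0, and the rounded reads served the count tests. Genes with a mean of at least 10 were tested on log2(value + 1) with limma 3.58.1 (R 4.3.3, empirical Bayes with trend, no block), which was tested on simulated data. The simulated libraries shared no effect by replicate number, whereas same-numbered libraries here deviated together, so that test does not cover such effects. Genes were fitted together and only the members, Mnt, the markers and pathway genes are named. By rule the text names every member, Mnt and the markers. In each pathway list it names the genes past the threshold, or else the gene with the highest mean normalised read count, not divided by length. It also names the 3 genes most like the member with the lowest adjusted p. Others are outside the rule, among them the pathway genes named for a call with the block, and not each is marked so. The values of 3 pathway genes are not reported here. Members and lists were chosen with earlier results of these data known.

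The alternatives changed the pseudocount, filter, scaling or variance model, added the replicate block, left out each library, or used edgeR 4.0.16, DESeq2 1.42.0 or a loess correction for GC content and length of the longest GENCODE M21 transcript (98.5% of genes matched). Same-numbered libraries deviated together, with correlations of deviations from group means across genes of 0.28, 0.50 and 0.35. Other pairs had -0.38 to 0.03. A gene's deviations in a group sum to 0, so positive same-numbered values lower the others, and this contrast is partly fixed. The replicate numbers were taken as pairs from the data and the titles, so the pairing rests in part on the data tested. Count depth was 22323050 to 42193291 reads per library, and the labels do not say whether the libraries kept strand, so overlapping antisense transcripts cannot be separated.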

Additional observations from a re-analysis of the deposited data

How the results depend on the processing

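With the replicate block, the pairing by replicate number, limma called 1998 genes in all, 2 members and 17 other pathway genes; with the block and the GC and length correction together it called 2378, 1 and 18. The GC and length correction alone gave 1069, 1 and 4, and DESeq2 gave 1457, 1 and 7. Over all genes a mean of at least 50 gave 322 calls and no trend 306. Ptpn11 alone made the count of other pathway genes 1 with a pseudocount of 10, no filter, TMM factors or quantile normalisation. Leaving out 1 library at a time gave 0 to 2024 calls over all genes, 0 to 3 members and 0 to 13 other pathway genes, each highest without siNTC replicate 3. Of 180 member values under alternatives, 168 kept their direction and their side of the threshold, 8 gained a call (Areg 5, Ereg 2, Erbb3 1) and 4 reversed: Hbegf and Nrg1 were 0.20 and 0.20 without siNTC replicate 2, and 0.04 and 0.10 without siMnt replicate 3; leaving out any 1 library put Hbegf between -0.38 and 0.20 and Nrg1 between -0.23 and 0.20. The cause was not tested. The lowest value of any member was 119.6 normalised read counts, for Erbb3 in siNTC replicate 2.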
